A study of Sus scrofa with 16 samples.

Results

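The genes described here serve protein folding and stress signalling in the endoplasmic reticulum (ER), the compartment in which secreted and membrane proteins are made. They were chosen by name, as 38 symbols in 5 sub-groups, and 34 of them were found among the 25880 genes counted in pig liver. The sub-groups were chaperones and their cofactors (11 of 12 symbols found), enzymes of disulfide bonds (6 of 6), proteins of entry into and exit from the ER (6 of 6), ER-associated degradation (5 of 6), and stress sensors with their regulators (6 of 8). The chaperone cofactor SDF2L1, the degradation gene DERL1 and the transcription factors ATF4 and DDIT3 had no matching identifier and were not analysed here.

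A hepatocyte secretes most proteins of blood plasma, and each of them enters the ER through the SEC61 channel, is held by chaperones such as BiP, the product of HSPA5, and receives its disulfide bonds from protein disulfide isomerases. Proteins that fail to fold are sent back to the cytosol, tagged with ubiquitin by the SEL1L and SYVN1 complex and degraded. When unfolded proteins build up, the sensors IRE1 (ERN1), PERK (EIF2AK3) and ATF6 start the unfolded protein response, which raises transcription of chaperone genes and slows translation.

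Liver RNA came from 16 pigs, the offspring of sows crossed from Polish Landrace and Polish Large White and boars crossed from Duroc and Pietrain, each housed in its own straw-bedded pen and fattened from about 60 to 118 kg. The diets were similar in energy and protein and differed in the fat added, namely rapeseed oil (group R, 3 females and 2 males), beef tallow (group B, 2 females and 3 males) or coconut oil (group C, 3 females and 3 males). According to the study, the females were gilts and the males barrows, that is, castrated. No group was fed without added fat, so each difference is between 2 fats. Each pig gave 1 library, made from the 3′ ends of mRNA, and pigs are numbered within their group.

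Gene counts summed to between 705669 and 1767671 reads in a pig (median 1018321.5). Hepatocyte markers were abundant, with a sum of 64156 to 205449 normalized counts (CPM, each gene's reads relative to the size of its library after TMM scaling over all 16 pigs) over 10 genes, although SERPINA1, a hepatocyte marker, had a mean of only 0.305 CPM. Beef tallow pig 3 stood apart from the other pigs on the first principal component, which held 19.3% of the variance. It had the lowest hepatocyte sum, against 107902 CPM or more in every other pig, and the highest sum of 10 Kupffer cell and macrophage genes, 1820.2 CPM. Coconut oil pig 3 had the smallest library and the largest share of reads with several alignments, 38.1%. The median share of such reads, which were counted on no gene, went from 26.5% with rapeseed oil over 22.2% with beef tallow to 19.8% with coconut oil. Its ranges overlapped widely, at 21.9 to 32.5%, 19.3 to 33.2% and 15.4 to 38.1% in the same order. The part of this share in the levels given here was not tested.

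Group B had the highest mean log2 CPM of the 3 diets in 27 of the 33 ER genes that were high enough to be kept over all pigs, where 35.4% of all genes kept had their highest mean in that group. None of the 33 (0) had its lowest mean in group B, against 36.2% of all genes kept. Group R was lowest for 20 of them (34.7% of all genes) and group C for 13 (29.1% of all genes). Among the chaperones, 10 of 11 had their lowest mean in group R, the exception being CALR, whereas all 4 degradation genes other than HERPUD1 had theirs in group C. Only SEC61B, SEL1L, SYVN1 and EDEM1 were highest in group R, and CANX and PDIA6 in group C, where 34.6% and 30% of all genes kept had their highest mean in these groups. In bulk liver, fewer cells of a type and less RNA per cell cannot be told apart.

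**Figure D1:**
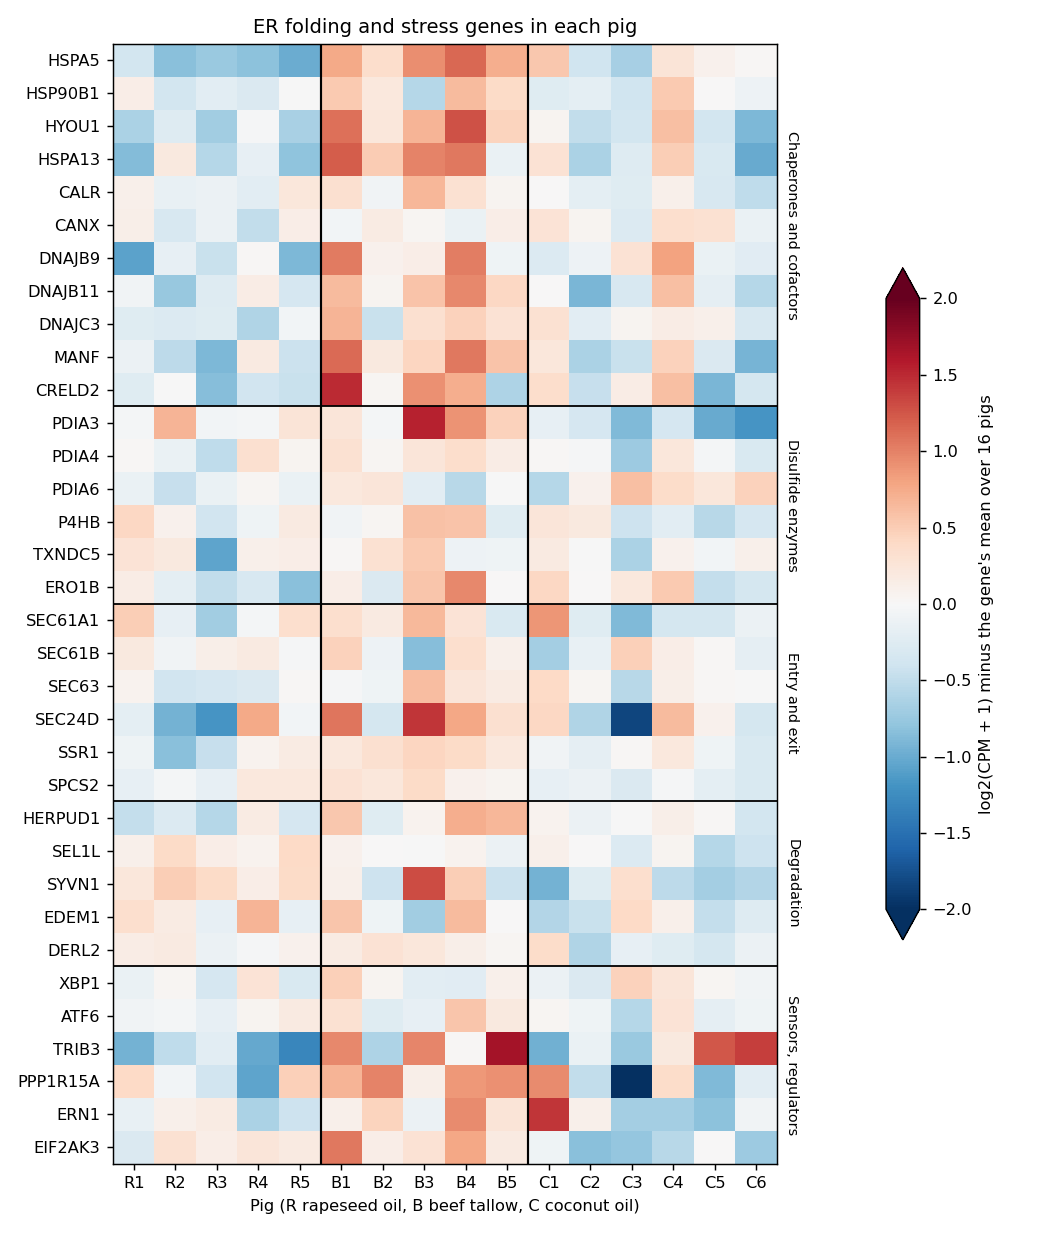
Levels of the 34 ER genes (rows, by sub-group) in the 16 pigs (columns), as log2(CPM + 1) minus the mean of the gene over the pigs, with red above and blue below that mean. The upper rows of chaperones are mostly red in the 5 beef tallow pigs and mostly blue in the 5 rapeseed oil pigs. PPP1R15A in coconut oil pig 3, at 0 reads, lies beyond the colour scale.

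The first comparison asked how beef tallow differed from rapeseed oil. Of the 33 ER genes tested, 4 were called, that is, had an edgeR adjusted p below 0.05, all of them chaperones or cofactors and all higher in group B, where 0.649% of the 6318 genes tested were called higher and 1.11% in either direction. These were HSPA5, HYOU1, HSPA13 and MANF, with increases between 2.05-fold and 2.92-fold. At an unadjusted p below 0.05 there were 14 of 33, all higher, against 8.33% of all genes. The log2 fold change was above 0 for 30 of 33 (51.5% of all genes), with a median of 0.43 for the ER genes and 0.011 for all genes. Without beef tallow pig 3, the pig that stood apart, the median of the ER genes was 0.25, with 31 of 33 above 0.

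HSPA5, which codes for BiP, the central Hsp70 chaperone of the ER lumen, lies on chromosome 1 from 265930044 to 265934959 (Sscrofa11.1). It was at 731, 531, 564, 532 and 474 CPM in rapeseed oil pigs 1 to 5. In beef tallow pigs 1 to 5 it was at 1601, 1205, 1803, 2100.5 and 1559.6 CPM. The lowest beef tallow pig thus lay well above the highest rapeseed oil pig. Group means were 566 ± 97.7 CPM (SD, n = 5) in group R and 1654 ± 329.7 CPM (n = 5) in group B, a log2 fold change of 1.54 (SE, the standard error, 0.19, edgeR adjusted p = 0.00104). HSPA5 was called with any single pig left out, with a log2 fold change between 1.45 and 1.66.

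HYOU1 codes for a large Hsp70 relative that exchanges the nucleotide bound to BiP, and lies on chromosome 9 from 46264929 to 46277056. Its levels were 62.5, 81, 59.5, 95.8 and 62.0 CPM in rapeseed oil pigs 1 to 5. In beef tallow pigs 1 to 5 they were 210.1, 114, 156, 236 and 133 CPM. The groups did not overlap, and the log2 fold change was 1.23 (SE 0.23, edgeR adjusted p = 0.0222). Without rapeseed oil pig 1, 3 or 5 or beef tallow pig 4 it was no longer called, with log2 fold changes between 1.09 and 1.36 over all pigs left out.

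MANF, a small protein of the ER lumen that binds BiP and is also secreted, lies on chromosome 13 from 33658279 to 33662218. It was at 191, 144, 111, 236 and 154 CPM in rapeseed oil pigs 1 to 5 and at 457, 237, 278, 433 and 309 CPM in beef tallow pigs 1 to 5. Beef tallow pig 2 lay just above rapeseed oil pig 4, and otherwise the groups were well separated. The log2 fold change was 1.03 (SE 0.23, edgeR adjusted p = 0.0426). It stayed called only without rapeseed oil pig 4 or beef tallow pig 2 or 3, and the adjusted p reached 0.127 over the pigs left out.

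HSPA13, a microsomal Hsp70-like protein, lies on chromosome 13 from 179309746 to 179321297. Rapeseed oil pigs 1 to 5 were at 28.0, 59.5, 34.9, 46.4 and 29.5 CPM, and beef tallow pigs 1 to 5 at 121, 74.3, 105, 109 and 47.6 CPM. Beef tallow pig 5 lay within the range of group R, and the other 4 above it. The log2 fold change was 1.22 (SE 0.27, edgeR adjusted p = 0.0426). It stayed called only without rapeseed oil pig 2 or beef tallow pig 3 or 5.

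The number of ER genes called therefore depended on single pigs. It was 1, HSPA5 alone, without rapeseed oil pig 1, 3 or 5 or beef tallow pig 4, and 2 without beef tallow pig 1, but 5 without beef tallow pig 3, where 2.32% of all genes were called. The gene added there was DNAJB9. DESeq2, the tool of the study, called 6 of the ER genes (3.24% of the genes it gave an adjusted p), adding DNAJB9 and TRIB3 to the 4.

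**Figure D2:**
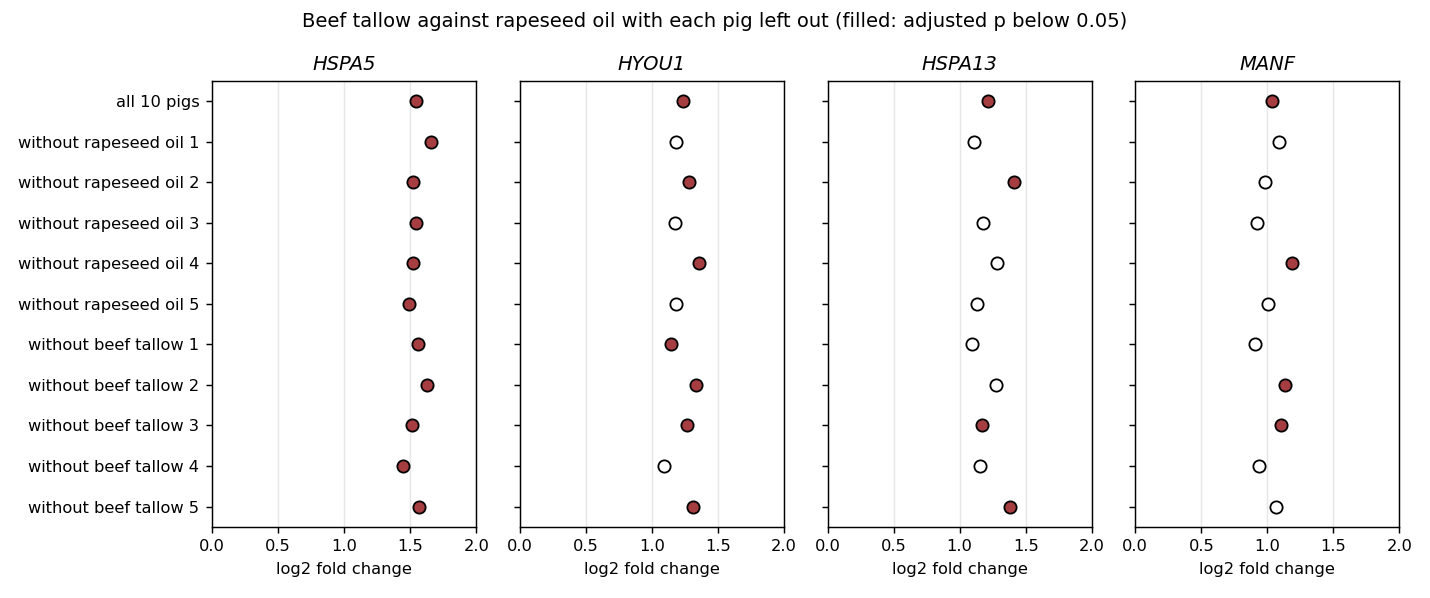
Log2 fold change (horizontal axis) of the 4 chaperone genes called between beef tallow and rapeseed oil, in the fit of all 10 pigs and with each pig left out in turn (vertical axis); filled points have an edgeR adjusted p below 0.05. All HSPA5 points are filled and lie between 1.45 and 1.66, while 6 of the 10 reduced fits of HYOU1 and 3 each of HSPA13 and MANF are filled.

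The other 7 chaperone genes did not pass, although each had a positive log2 fold change in group B. The BiP co-chaperones with J domains were DNAJB9 at 0.99 (95% interval 0.41 to 1.57, edgeR adjusted p = 0.0945), DNAJB11 at 0.79 (edgeR adjusted p = 0.0993) and DNAJC3 at 0.59 (edgeR adjusted p = 0.190). CRELD2, a gene known to be induced by ER stress, had 9.44 ± 2.13 CPM in group R and 20.5 ± 11.2 CPM in group B (SD, n = 5 each), with beef tallow pig 5 at 7.74 CPM inside the range of group R. HSP90B1, the Hsp90 of the ER, was at 0.43, with an interval of -0.014 to 0.87. The lectin chaperones, which hold newly made glycoproteins, had the smallest values of the sub-group, 0.29 for CALR (interval -0.075 to 0.66) and 0.15 for CANX (interval -0.21 to 0.50).

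The 6 disulfide enzymes were also all above 0, between 0.12 for PDIA6 and 0.67 for ERO1B, with 0 called and 1 at an unadjusted p below 0.05. PDIA3, which forms disulfide bonds in glycoproteins held by CALR and CANX, was at 229.5, 377, 225, 229.7 and 281 CPM in rapeseed oil pigs 1 to 5. In beef tallow pigs 1 to 5 it was at 278, 229, 681, 439.9 and 324 CPM. The groups overlapped, and the highest value belonged to beef tallow pig 3, without which the log2 fold change of 0.54 was 0.24. P4HB, the classical protein disulfide isomerase, was at 0.15 and PDIA4 at 0.24, each with an interval that includes 0.

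For entry and exit, 0 of 6 genes passed and 5 were above 0. SEC61A1, the pore of the translocation channel, was at 455, 289, 198, 315 and 408 CPM in rapeseed oil pigs 1 to 5 and at 409.6, 365, 505, 389 and 262 CPM in beef tallow pigs 1 to 5. These ranges overlapped almost fully (log2 fold change 0.21, interval -0.27 to 0.69). SSR1, a subunit of the complex that assists translocation, lay between 90.3 and 183 CPM in group R and between 189 and 219 CPM in group B. All beef tallow pigs thus lay above all rapeseed oil pigs, as they did for 2.58% of all genes, without passing the test (0.50, edgeR adjusted p = 0.230). SEC24D, a COPII coat protein that selects cargo for export, was at 0.97 (edgeR adjusted p = 0.217), with individual pigs from 10.3 to 42.2 CPM in group R and from 19.1 to 68.3 CPM in group B.

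The 5 degradation genes included 3 above and 2 below 0, with 0 called. HERPUD1, a membrane protein that brings substrates to the ubiquitin ligase and is itself induced by ER stress, was at 364, 421, 341, 569.7 and 404 CPM in rapeseed oil pigs 1 to 5. Beef tallow pigs 1 to 5 were at 740.4, 431, 536, 847 and 811 CPM. Beef tallow pigs 1, 4 and 5 lay above group R and the other two within its range (0.68, edgeR adjusted p = 0.133). SYVN1, the ubiquitin ligase, was at 100.05, 120.04, 111, 93.7 and 112 CPM in rapeseed oil pigs 1 to 5. It was far more scattered in beef tallow pigs 1 to 5, at 91.7, 63.7, 212, 121 and 63 CPM. Its log2 fold change of 0.051 (interval -0.55 to 0.65) turned to -0.34 without beef tallow pig 3, the pig at 212 CPM. SEL1L was at -0.22, EDEM1 at -0.058 and DERL2 at 0.11, all with intervals that include 0.

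Of the sensors and regulators, all 5 tested were above 0 and 0 passed. TRIB3, a pseudokinase gene induced by ATF4, had the largest log2 fold change of all the ER genes, 1.69 (SE 0.41, edgeR adjusted p = 0.0599). Its levels ran from 4.92 to 11.6 CPM in group R and from 8.49 to 45.3 CPM in group B, on a median of 11 reads per pig. XBP1, the transcription factor whose mRNA is spliced by IRE1, was at 209, 235, 181, 275 and 185 CPM in rapeseed oil pigs 1 to 5. In beef tallow pigs 1 to 5 it was at 319, 238, 197, 195 and 244 CPM. These ranges overlapped (0.14, interval -0.26 to 0.53), and the counts per gene do not separate spliced from unspliced XBP1 mRNA. EIF2AK3 was at 13.2, 20.5, 18.1, 19.6 and 18.7 CPM in rapeseed oil pigs 1 to 5 and at 35.1, 18.0, 20.3, 28.7 and 18.8 CPM in beef tallow pigs 1 to 5, overlapping (0.44, edgeR adjusted p = 0.433). ERN1 and ATF6, the other sensors, were at 0.54 (edgeR adjusted p = 0.324) and 0.16 (edgeR adjusted p = 0.742).

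Plasma cells are rich in ER proteins, and the sum of the 9 plasma and B cell markers found had a median of 53 CPM with rapeseed oil, 35.0 CPM with beef tallow and 23.0 CPM with coconut oil. Its ranges were 27.8 to 74.9, 8.85 to 55.2 and 16.9 to 32.4 CPM, and no marker of the list was at 0 in every pig. Between beef tallow and rapeseed oil, 1 of 9 hepatocyte markers, 1 of 9 Kupffer cell and macrophage markers and 1 of 6 endothelial markers tested were called, against 1.11% of all genes. The sum of the 6 endothelial markers, of 8 listed, was ordered like the mean log2 CPM of the chaperone genes other than CALR and CANX. Its median was 366 CPM (311 to 498) in group R, 454 CPM (390 to 492.9) in group B and 401 CPM (351 to 435) in group C, with overlapping ranges. This order was not particular to endothelial markers. The sum of the stellate cell and fibroblast markers also had its lowest median in group R and its highest in group B, with overlapping ranges. The part of these cell types in the differences between diets was not tested.

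**Figure D3:**
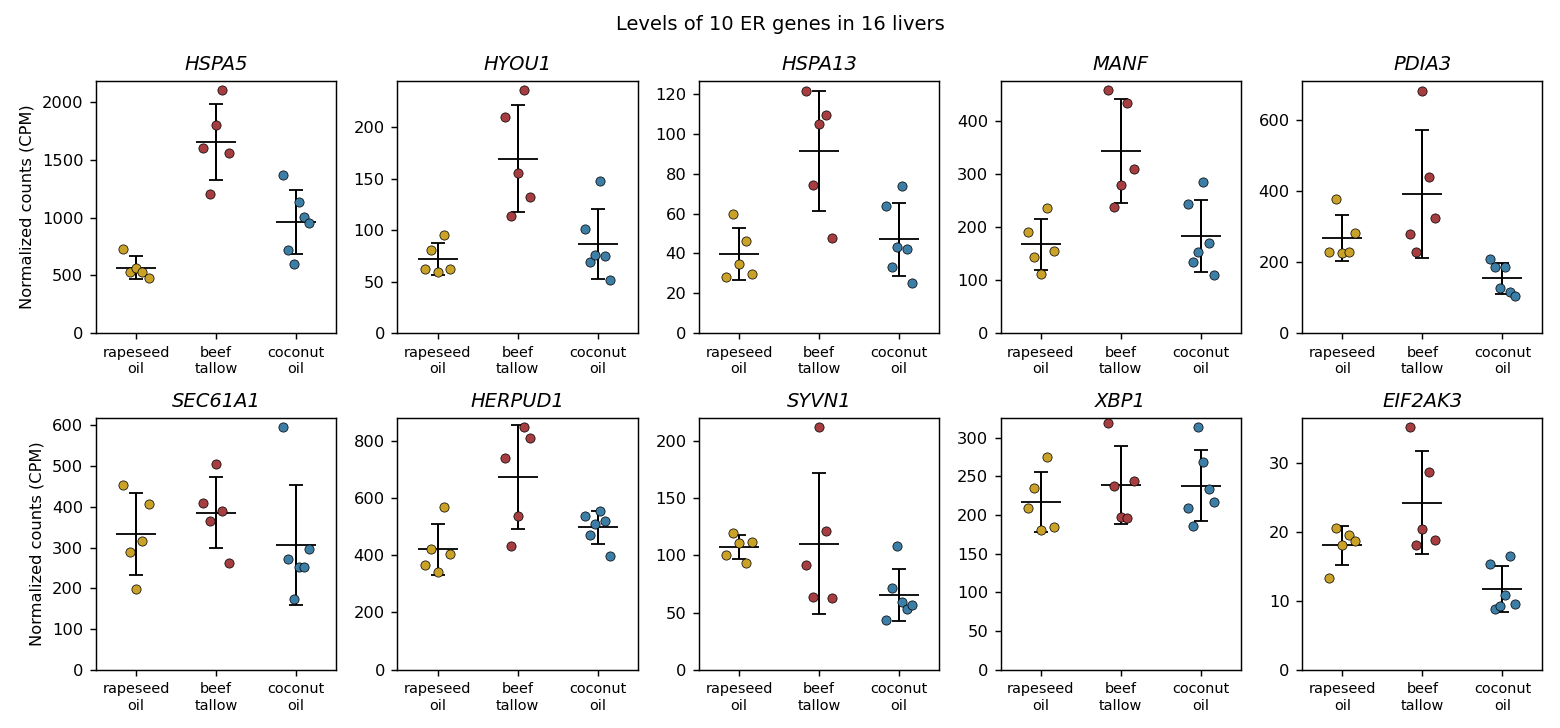
Normalized counts (CPM, linear axes from 0) of 10 ER genes in the livers of the 3 diet groups; each point is 1 pig, and the horizontal bar and whiskers give the mean ± SD (n = 5, 5 and 6). For HSPA5, HYOU1 and MANF every beef tallow pig lies above every rapeseed oil pig, and for PDIA3 every coconut oil pig lies below every pig of both other groups.

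The second comparison set coconut oil against rapeseed oil, with the rapeseed oil pigs of the first comparison. By edgeR, 0 of 33 ER genes passed, where 0.138% of the 6528 genes tested were called. There were 7 at an unadjusted p below 0.05, 3 higher (HSPA5, DNAJB9, TRIB3) and 4 lower in group C (PDIA3, SEL1L, SYVN1, EIF2AK3), against 13% of all genes (6.45% higher and 6.53% lower). With single pigs left out this count ran from 4 of 32 (without coconut oil pig 6) to 9 of 32 (without coconut oil pig 1). Above 0 were 19 of 33 (49.9% of all genes). DESeq2 called 3, namely HSPA5, PDIA3 and SYVN1 (2.61% of the genes it gave an adjusted p). Without coconut oil pig 3, edgeR called 2, HSPA5 and SYVN1, while its calls over all genes rose from 9 to 27.

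HSPA5 lay between 597 and 1366 CPM in group C, with a median of 979 and a mean of 962 ± 278 CPM (SD, n = 6). Coconut oil pigs 2 and 3, the lowest, fell within the range of group R, and the other 4 lay above it. The log2 fold change was 0.76 (SE 0.20, edgeR adjusted p = 0.11, DESeq2 adjusted p = 0.0148). The other chaperone genes called with beef tallow were at 0.25 for HYOU1 (interval -0.24 to 0.73), 0.22 for HSPA13 (interval -0.34 to 0.79) and 0.11 for MANF (interval -0.39 to 0.61). Their lowest, median and highest levels in group C were 51.8, 75.4 and 148 CPM for HYOU1. HSPA13 was at 25.3, 42.7 and 73.8 CPM and MANF at 109, 161 and 284 CPM in the same order. Each of these ranges enclosed that of group R. Of the 11 chaperone genes, 10 were above 0 (49.9% of all genes), with a median of 0.22. Without coconut oil pig 4 it was 7 of 11, with a median of 0.062.

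PDIA3 differed in the opposite direction from HSPA5. Its level in group C was 104 at the lowest, 156 at the median and 209.6 CPM at the highest pig, so that every coconut oil pig lay below every rapeseed oil pig, a separation seen in this direction for 0.812% of all genes. The log2 fold change was -0.81 (SE 0.20, edgeR adjusted p = 0.104). It did not pass with any single pig left out, and it passed by DESeq2 (adjusted p = 0.0159). PDIA3 lies on chromosome 1 from 127786174 to 127814096.

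SYVN1 was between 43.7 and 108 CPM in group C, with a median of 57.8. Only coconut oil pig 3, at 108 CPM, reached the range of group R. The log2 fold change was -0.75 (SE 0.20, edgeR adjusted p = 0.114), and without coconut oil pig 3 it was -0.92 (edgeR adjusted p = 0.0152). Its partner SEL1L was at -0.40 (edgeR adjusted p = 0.299), EDEM1, a lectin that picks misfolded glycoproteins, at -0.42 and DERL2, a channel component, at -0.22. HERPUD1, at 396 to 554 CPM with a median of 513, was at 0.24 (interval -0.080 to 0.56). The degradation genes as a sub-group had a median of -0.40 in this comparison, with 4 of 5 below 0, where 50.1% of all genes were below 0.

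TRIB3 was at 1.40 (SE 0.45, edgeR adjusted p = 0.198) and ran from 6.47 to 37.2 CPM in group C, with a median of 14.0. SEC61A1 had a lowest level of 174, a median of 262 and a highest level of 597 CPM, the last in coconut oil pig 1, around a log2 fold change of -0.12. XBP1 ranged from 186 over a median of 225 to 313 CPM, within the combined range of the other groups (0.12, interval -0.22 to 0.46). EIF2AK3 was lower, at 8.76, 10.2 and 16.5 CPM for its lowest, median and highest pig (-0.58, edgeR adjusted p = 0.336).

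The third comparison, of coconut oil with beef tallow, shares its pigs with the other two. By edgeR 0 of 34 ER genes passed, where 0.0587% of the 6812 genes tested were called. At an unadjusted p below 0.05 there were 14 of 34, all lower in group C, against 6.21% of all genes. Below 0 were 32 of 34 (50.4% of all genes), with a median of -0.36 for the ER genes against -0.0045 for all genes, the exceptions being CANX at 0.078 and PDIA6 at 0.27. DESeq2 called 5 of the ER genes, PDIA3, HSPA5, HYOU1, HSPA13 and MANF (2.46% of the genes it gave an adjusted p).

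PDIA3 came closest to the threshold, at -1.34 (SE 0.27, interval -1.91 to -0.78, edgeR adjusted p = 0.0668). Its 6 coconut oil pigs all lay below the lowest beef tallow pig, as did those of EIF2AK3 and SPCS2 (0.881% of all genes). Without beef tallow pig 3, its highest pig, the log2 fold change of PDIA3 was -1.04, and without beef tallow pig 2, its lowest, it was -1.49 and passed (edgeR adjusted p = 0.0338). EIF2AK3 was at -1.02 (edgeR adjusted p = 0.208). SPCS2, a subunit of the signal peptidase, was at -0.39 (edgeR adjusted p = 0.302), with 172 to 208 CPM in group C and 220.1 to 277 CPM in group B.

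The chaperones that were called with beef tallow lay lower with coconut oil, at -0.99 for HSPA13, -0.98 for HYOU1, -0.92 for MANF and -0.78 for HSPA5, with edgeR adjusted p-values between 0.208 and 0.228. They had been called because the same beef tallow pigs were high, so their lower values here were partly set by that choice. Coconut oil pig 1, at 1366 CPM, was the only one of its group within the range of beef tallow for HSPA5. DNAJB11 was at -0.74 and CALR at -0.46, both with an unadjusted p below 0.05. Among the entry and exit genes all 6 were below 0, from SEC61B at -0.078 to SEC24D at -0.88, and all 5 degradation genes were too, from SEL1L at -0.17 to SYVN1 at -0.79, which was -0.40 without beef tallow pig 3. XBP1 was at -0.0063 (interval -0.39 to 0.38).

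PPP1R15A, the phosphatase subunit that reverses the translational block set by PERK, had a median of 8 reads over all pigs. It passed the filter on low counts only in this comparison, with medians of 10.6 CPM in group B and 4.00 CPM in group C. Passing thus rested more on group B, and its direction adds little to the 32 of 34 below 0. It was at 9.69 ± 2.31 CPM in group B (SD, n = 5) and at 4.84 ± 3.97 CPM in group C (n = 6), with a log2 fold change of -0.92 (interval -1.87 to 0.039). Coconut oil pig 3 had 0 reads, which allows up to 4.55 CPM at its depth, counting error only.

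The sum of Kupffer cell and macrophage markers, 10 of 11 found, was lower with coconut oil, with a median of 837 CPM (766 to 1037) against 1224 CPM (716 to 1328) with rapeseed oil and 1171 CPM (982 to 1820.2) with beef tallow. Of its 9 genes tested, 5 had an unadjusted p below 0.05 between coconut oil and beef tallow (11.5% of all genes). By adjusted p, 0 were called (0.0587% of all genes). The part of these cells in the mostly lower levels of ER genes in group C than in group B was not tested.

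**Figure D4:**
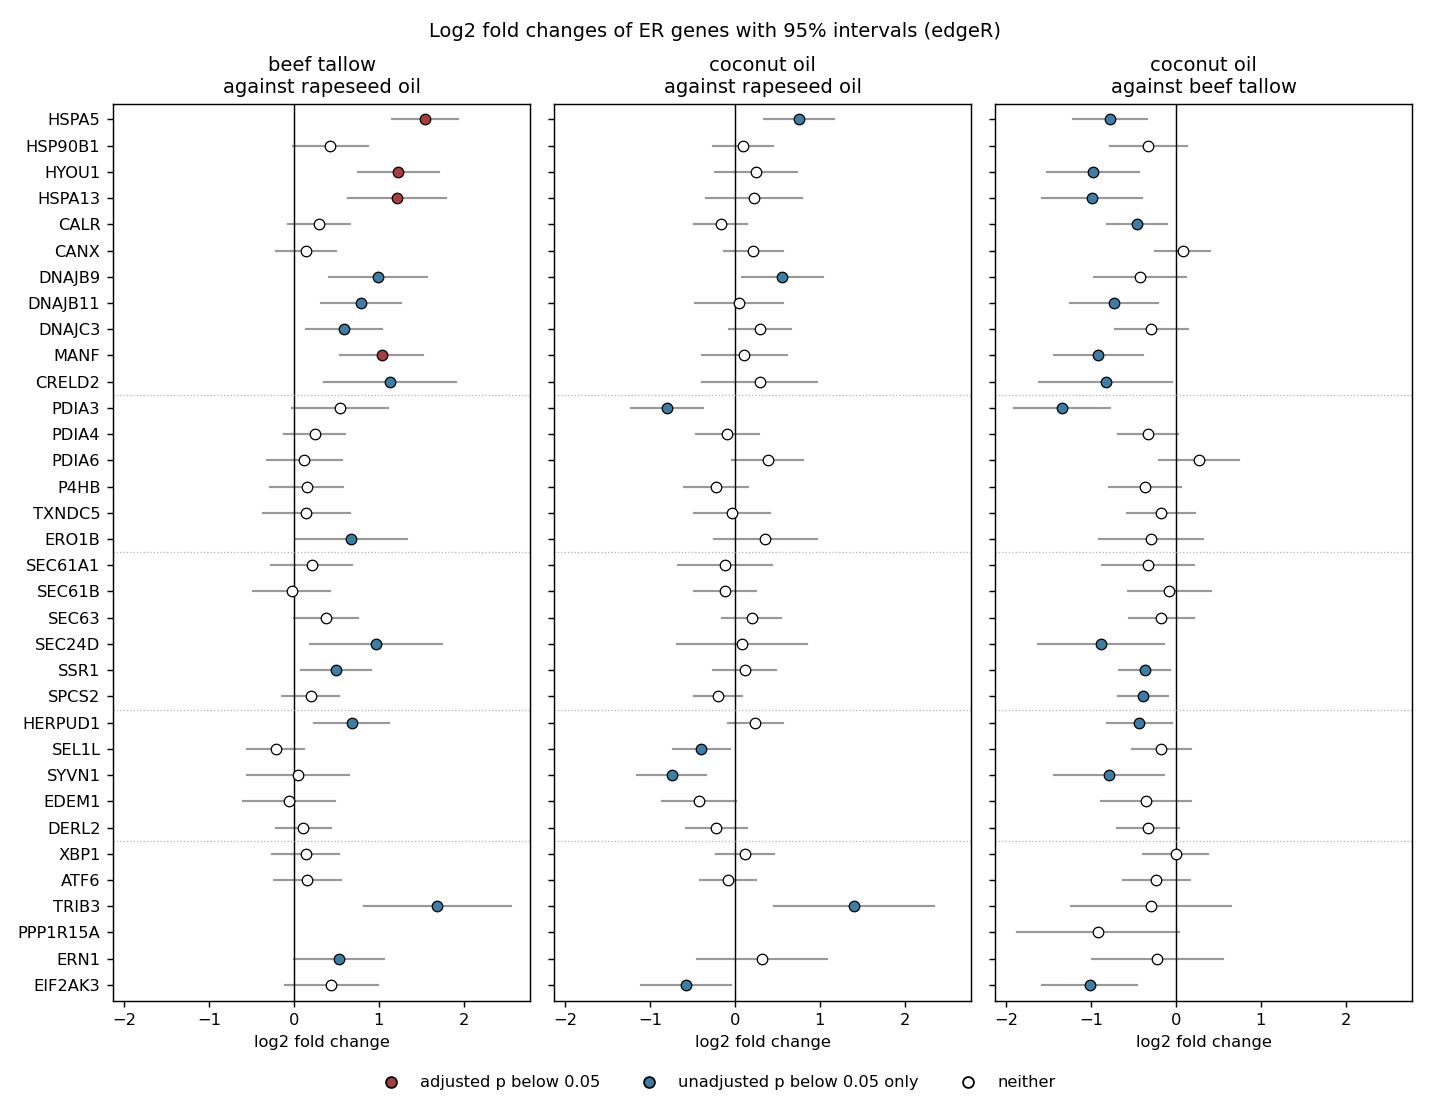
Log2 fold change of each ER gene (vertical axis, dotted lines between sub-groups) in the 3 comparisons of diets, with 95% intervals; red points have an edgeR adjusted p below 0.05, blue points an unadjusted p below 0.05 only. The 4 red points are HSPA5, HYOU1, HSPA13 and MANF between beef tallow and rapeseed oil, and 32 of 34 points lie below 0 between coconut oil and beef tallow.

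The groups differed in their numbers of females and males (barrows), so the sexes were compared over all pigs with diet in the fit. None of the 33 ER genes passed (0 by edgeR and 0 by DESeq2), where 0.0786% of the 6365 genes tested were called, and 0 had an unadjusted p below 0.05 (4.9% of all genes). The smallest edgeR adjusted p was 0.914. Males were lower than females for 25 of 33 (50.2% of all genes), with a median of -0.11 that ran from -0.18 without coconut oil pig 4 to -0.051 without beef tallow pig 2 and was -0.027 without diet in the fit. HSPA5 was at -0.13 (interval -0.47 to 0.22). With sex as a covariate the same 4 genes were called between beef tallow and rapeseed oil.

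Pigs of one diet also differed from each other, and it was asked which ER genes varied with HSPA5 once the mean of each diet was taken off. Over 16 pigs and 32 genes, 0 correlations passed after adjustment over the 32, and 7 had an unadjusted p below 0.05, where 5.76% of the 6890 other genes kept did. SEC63, a J-domain protein at the channel that recruits BiP, had the largest, with Pearson's r = 0.72 (permutation p = 0.00529, adjusted p = 0.169) and Spearman's rho = 0.69 (permutation p = 0.00474, adjusted p = 0.115). It was r = 0.47 (permutation p = 0.137) without coconut oil pigs 1 and 3, the pigs farthest from the median of HSPA5, and so it rests in part on them. SEC24D was at r = 0.66 (permutation p = 0.0126, adjusted p = 0.200) and fell to 0.47 without those pigs, and SEC61A1 fell from 0.58 to 0.20. DNAJB11 was at r = 0.62 (permutation p = 0.0291, adjusted p = 0.200; rho = 0.71, permutation p = 0.00721) and at 0.73 without those pigs. Over 16 pigs, r was above 0 for 26 of 32 genes (48.8% of all genes kept), with a median of 0.38 against -0.0088. PDIA6 ran the other way, at r = -0.62 (permutation p = 0.0298, adjusted p = 0.200; rho = -0.45, permutation p = 0.111) and -0.33 without them. Of the genes called with HSPA5, MANF was at r = 0.53, HYOU1 at 0.46 and HSPA13 at 0.34, with unadjusted permutation p-values above the threshold.

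**Figure D5:**
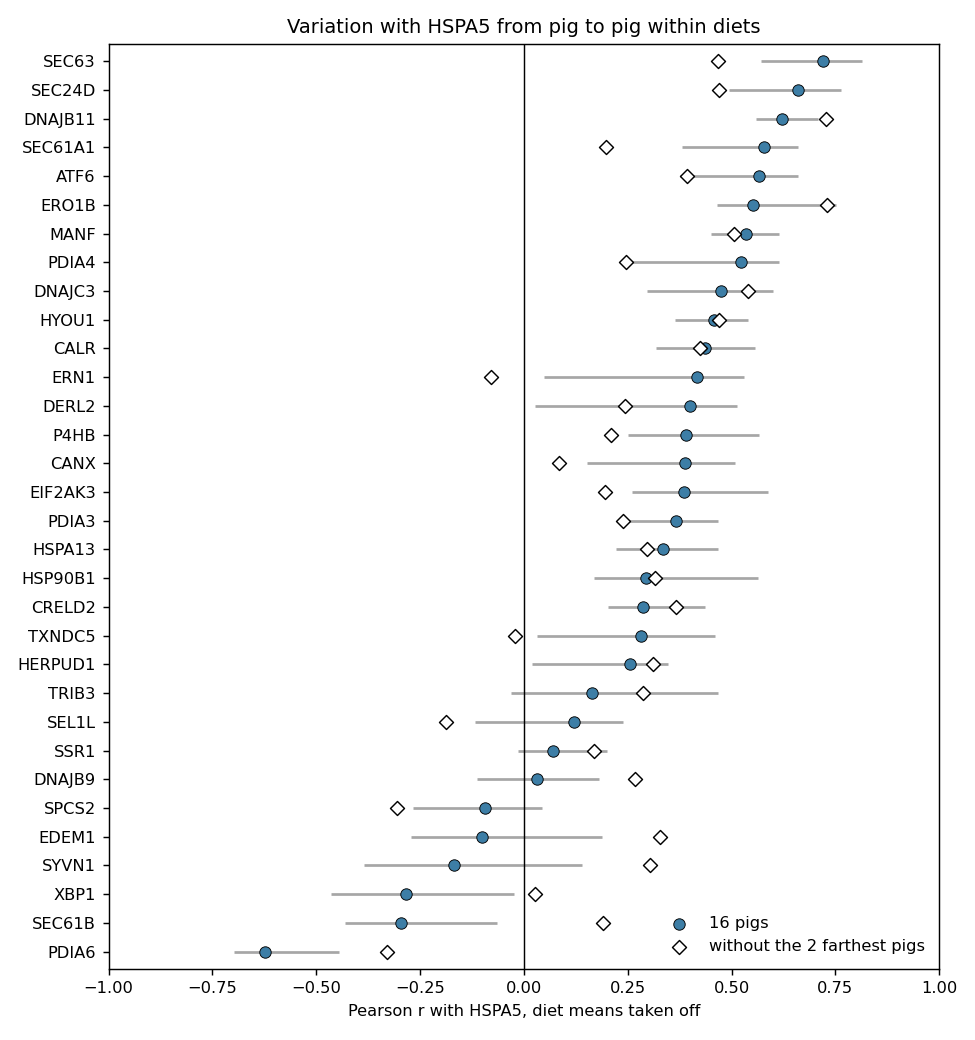
Pearson's r (horizontal axis) between HSPA5 and each of 32 other ER genes (vertical axis) over 16 pigs, after the mean of each diet was taken off; open diamonds leave out coconut oil pigs 1 and 3, and grey lines span the values with any 1 pig left out. SEC63 is highest at 0.72 and PDIA6 lowest at -0.62, and several values move toward 0 without the 2 pigs.

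A wider list of 113 further ER genes, of which 104 were found, was read in the same fits. Between beef tallow and rapeseed oil 1 of 84 was called, against 1.11% of all genes, 15 had an unadjusted p below 0.05 (15% of all genes) and 53 were above 0, with a median of 0.13. The gene called was SESN2, a stress-inducible regulator of growth signalling, at 15.4, 24.6, 27.1, 12.4 and 25.6 CPM in rapeseed oil pigs 1 to 5 and at 51.2, 54.1, 65.6, 90.3 and 27.7 CPM in beef tallow pigs 1 to 5. Beef tallow pig 5 lay just above the highest rapeseed oil pig, and the others far above. The log2 fold change was 1.47 (SE 0.30, edgeR adjusted p = 0.0305), called in only 2 of the 10 fits that left out a pig, those without beef tallow pig 3 or 5. SRPRB, a subunit of the receptor that docks ribosomes at the ER, was at 0.89 (edgeR adjusted p = 0.0533), ATF5, a transcription factor of the stress response, at 0.87 (edgeR adjusted p = 0.124) and UGGT1, which checks the folding of glycoproteins, at 0.71 (edgeR adjusted p = 0.120). All beef tallow pigs lay above all rapeseed oil pigs for 3 of the 84 (SESN2, SRPRB and UGGT1), against 2.58% of all genes. They lay below them for 2 others, FAM8A1 and TMBIM6, as they did for 126 of the 6318 genes tested.

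With coconut oil against rapeseed oil 0 of 85 wider genes were called and 13 had an unadjusted p below 0.05, 8 of them lower (13% of all genes). The smallest p-values belonged to genes lower in group C, namely NUCB1, a calcium-binding protein, at -0.73 (edgeR adjusted p = 0.104), CREB3L2, a membrane-bound transcription factor, at -0.62 (edgeR adjusted p = 0.177), and PRKCSH, a subunit of glucosidase II, at -0.88 (edgeR adjusted p = 0.206). Between coconut oil and beef tallow 0 of 84 were called and 10 had an unadjusted p below 0.05, 8 of them lower (11.5% of all genes). Below 0 were 62 of 84, with a median of -0.10. ATF5 was at -0.97 (edgeR adjusted p = 0.208), SRPRB at -0.66 and UGGT1 at -0.56. The sub-lists of the wider list had medians between 0.018 and 0.29 with beef tallow against rapeseed oil. Of the 5 sub-groups described above, degradation (0.051), disulfide enzymes (0.20) and entry and exit (0.29) lay within or at the edge of that range. The sensors (0.44) and the chaperones (0.99) lay above it.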

How the data were processed

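Libraries of liver RNA (QuantSeq FWD) held the 3′ ends of transcripts. Before deposit, the authors ran FastQC 11.8 for quality and FLEXBAR 3.5.0 for trimming, aligned reads with TopHat 2.1.1 (Sus scrofa 11.1), and obtained a count for each gene of Ensembl 96 from HTSeq-count 0.11.1. The deposited values are whole-number read counts per gene for each pig, without normalization; 5 tallies of reads on no gene were used only for shares of reads. Reads with several alignments entered no count, which leaves genes that have near-identical copies uncertain. The labels do not state more than 1 library per pig, and no 2 libraries held identical values.

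Identifiers were paired with symbols for 14857 genes, and positions are those of RefSeq on the same assembly, matched by symbol. The ER genes and all lists were chosen with earlier results of these data known. Levels of pigs (in group C the lowest, median and highest) are given for ER genes past the threshold, the 3 of smallest p in each pair of diets and a leading gene of each sub-group. Of the wider list, genes past the threshold and the 3 of smallest p in each pair are named, and pig levels are given only for the gene past it. FAM8A1 and TMBIM6 were named, and CRELD2, TRIB3, SSR1, SEC24D, SPCS2 and PPP1R15A given ranges, after their values were seen.

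Each pair of diets was fitted on its own in edgeR 4.0.16 (R 4.3.3, quasi-likelihood F-test) with TMM, filterByExpr (minimum count 10, minimum total 15), no covariate, and Benjamini-Hochberg adjustment over all genes tested at 0.05. The standard error is the log2 fold change divided by the square root of F. Correlations used 100000 permutations of HSPA5 within diets (two-sided). Alternatives were DESeq2 1.42.0, RLE, no filter, the 16 pigs in a single fit, a covariate for sex (and none for diet between the sexes), a replicate block and each pig left out. In a test on simulated data of matching depth with known changes, edgeR recovered 47% of 2-fold changes between beef tallow and rapeseed oil (6318 genes), 73% between coconut oil and rapeseed oil (6528 genes) and 51% between coconut oil and beef tallow (6812 genes). Counting error was not given separately except at 0 reads, since the spread between pigs covers it.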

Additional observations from a re-analysis of the deposited data

Results flagged for a closer look

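Each of the 33 ER genes kept over all pigs was checked in each diet group, 99 groups in all, for a pig whose gap to the nearest other pig was unusually large against the range of its group (Dixon's 95% limit). Chance alone flags about 1 in 20 such groups. On the CPM scale 5 groups met this, and on the log2 scale 2 of the same groups did. TXNDC5, a disulfide enzyme, was at 19.4 CPM in rapeseed oil pig 3, with the next pig at 44.3 CPM (gap over range 0.813, on the log2 scale 0.869). It was also low in coconut oil pig 3, at 26.2 CPM with the next pig at 39.7 CPM (0.653, on the log2 scale 0.711). Coconut oil pig 1 was high in SEC61A1, at 597 CPM with the next pig at 296 CPM (0.712), and in the sensor gene ERN1, at 76.1 CPM with the next pig at 29.8 CPM (0.761). Coconut oil pig 4 was high in HSP90B1, at 972 CPM with the next pig at 675 CPM (0.646).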

How the results depend on the processing

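The 4 chaperone calls between beef tallow and rapeseed oil held with RLE, all pigs in 1 fit and sex as a covariate, and DESeq2 or no filter made 6 calls.

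Over all genes, calls between beef tallow and rapeseed oil numbered 188 with DESeq2, 190 without a filter and 35 with the replicate block, against 70. For coconut oil against rapeseed oil they were 93 and 82 with the first 2 of these, against 9, and for coconut oil against beef tallow 53 and 22, and 8 with all pigs in 1 fit, against 4. The ER genes called were 3 with either DESeq2 or no filter for coconut oil against rapeseed oil. For coconut oil against beef tallow they were 5 with DESeq2, 1 without a filter and 1 with all pigs in 1 fit (PDIA3). In the wider list, beef tallow against rapeseed oil gave 2 with DESeq2, 4 without a filter, 2 with all pigs in 1 fit and 0 with the replicate block; coconut oil against rapeseed oil gave 1 with DESeq2 and 1 without a filter, and coconut oil against beef tallow 1 with DESeq2. Between the sexes, DESeq2 called 11 genes and no filter 41, against 5. The causes were not tested.

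With each pig left out, all-gene calls ran from 9 to 149 (beef tallow against rapeseed oil), 3 to 27 (coconut oil against rapeseed oil) and 4 to 9 (coconut oil against beef tallow), calls of ER genes from 1 to 5, 0 to 2 and 0 to 1, and of the wider list from 0 to 4, 0 to 0 and 0 to 0. Between 0 and 1 correlation with HSPA5 passed.

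Signs turned for small values. With the replicate block SYVN1 was at -0.10 between beef tallow and rapeseed oil and XBP1 at 0.019 between coconut oil and beef tallow, the latter at 0.0021 without a filter. Without diet in the fit, males against females gave 0.077 for HSPA5 and 0.0082 for HERPUD1. With pigs left out, beef tallow against rapeseed oil ran from -0.34 to 0.19 for SYVN1 and from -0.88 to 0.088 for PRKCSH. Coconut oil against rapeseed oil ran from -0.056 to 0.26 for MANF, -0.42 to 0.023 for SEC61A1 and -0.21 to 0.081 for ATF5. Coconut oil against beef tallow ran from -0.10 to 0.12 for XBP1 and -0.96 to 0.00087 for PRKCSH, and males against females from -0.28 to 0.021 for PDIA3.

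Replicate numbers did not clearly pair the pigs (correlations of same-numbered pigs from -0.25 to 0.14). Rapeseed oil pigs 1, 2 and 3 did correlate most with the coconut oil pig of their number. In each of the other pairs of diets this held for number 4 only. With the block HSPA13 and SESN2 each had an edgeR adjusted p of 0.0801. At this depth, genes under about 10 reads per pig could rarely be tested.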
